A study of Mus musculus with 8 samples.

Results

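The transcriptomes of unstimulated GSTM1 knockdown (KD) and control KD astrocytes were compared across all genes. The comparison used the 4 libraries, of 8 in the series, whose labels give no treatment: 2 labelled Gstm1 knockdown and 2 labelled Control knockdown. The other 4 libraries were stimulated with TNF-α and were not used here. The cells were primary glia from the cortices of C57BL/6 mouse pups 2 to 5 days old, grown as a mixed glial culture. Both groups carried a lentiviral pLKO-puro vector, expressing a short hairpin RNA (shRNA) against Gstm1 in GSTM1 KD and a non-silencing shRNA in control KD. Both were selected with puromycin, shaken to remove microglia and cells of the oligodendrocyte lineage, and depleted of CD11b-positive cells. The vector was not restricted to one cell type, so every glial cell of the culture could carry it. Each group had n = 2 biological replicates, and the sources do not say whether these came from separate litters, so p-values measure the spread between these libraries. Because the RNA is from bulk cultures, fewer cells of a type and less RNA per cell cannot be told apart.

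Glutathione S-transferases (GSTs) join glutathione to electrophilic compounds, which makes them soluble and lets cells export them. GSTM1 belongs to the mu class, whose genes lie side by side in one cluster in the mouse, and it is abundant in astrocytes, the glia that supply much of the glutathione of the brain. Astrocytes also respond to injury and infection with cytokines and chemokines under the transcription factor NF-κB.

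The expected counts summed to 34434615 and 26026758 in control KD replicates 1 and 2 and to 22565115 and 19772259 in GSTM1 KD replicates 1 and 2, over 54146 annotated genes. A count of 3 corresponded to between 0.0871 and 0.152 CPM (counts scaled to a common library size, by edgeR's TMM library sizes for the levels of genes given below). The replicates were not equally close. Over the 14899 genes tested, the root mean square difference in log2 CPM was 0.369 between the control KD libraries and 0.261 between the GSTM1 KD libraries. Control KD replicate 1 lay farther from both GSTM1 KD libraries (0.536 and 0.628) than control KD replicate 2 did (0.439 and 0.477).

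Astrocyte markers were abundant in every library but differed between the control KD replicates. Gfap, the intermediate filament gene of astrocytes, was at 1010.1 and 3119 CPM in control KD and 3162 and 5707 CPM in GSTM1 KD. Aldh1l1, a folate enzyme gene used as a pan-astrocyte marker, was at 91.3 and 259.9 CPM in control KD and 324 and 402 CPM in GSTM1 KD. For both genes control KD replicate 1 was the lowest of the 4 libraries, and neither difference passed the test (log2 fold changes 1.10 and 1.05, edgeR adjusted p = 0.234 and 0.187). Summed over the 30 astrocyte identity genes, of which 28 were tested, the level was 7769 and 15430.0 CPM in control KD and 13856 and 18977 CPM in GSTM1 KD. These genes (Gfap, Aldh1l1 and the microglial genes below) were chosen after their values were seen. Microglial genes were low, as P2ry12 had 0 and 0 counts in the control KD libraries against 1 and 2 in those of GSTM1 KD, Aif1 had 4 and 0 counts in the control KD libraries against 0 and 0 in those of GSTM1 KD and Cx3cr1 had 9 and 2 counts in the control KD libraries against 3 and 2 in those of GSTM1 KD. Itgam, which encodes the CD11b used for depletion, had 61 and 8 counts in the control KD libraries against 3 and 0 in those of GSTM1 KD, and the complement gene C1qa had 78 and 15 counts in the control KD libraries against 13 and 4 in those of GSTM1 KD, so control KD replicate 1 held the most of both. Of 16 microglial markers, 7 were tested and 0 passed in edgeR or DESeq2, with 0 at an unadjusted p below 0.05 in edgeR. Their median log2 fold change was -0.86, with 6 of the 7 below 0, and it ran from -1.14 without GSTM1 KD replicate 1 to 0.00066 without control KD replicate 1, while without control KD replicate 2 it was -0.64 and 3 were called lower. Gfap, Aldh1l1, P2ry12, Cx3cr1 and Itgam overlap other annotated genes, which makes their counts uncertain.

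Gstm1 itself was low in each library labelled GSTM1 KD. Gstm1 (ENSMUSG00000058135.12, chromosome 3 from 108012255 to 108017973, minus strand) was at 234 and 382 CPM in control KD and 29.4 and 31.8 CPM in GSTM1 KD, 9.93% of the control level (log2 fold change -3.33, SE 0.259, edgeR adjusted p = 0.0132). With either GSTM1 KD library left out the call was lost while the fold change held, at -3.28 (edgeR adjusted p = 0.0833) without replicate 1 and -3.40 (edgeR adjusted p = 0.0999) without replicate 2. The second mu-class gene past the test moved the other way. Gstm2, which lies 25802 bases from Gstm1, was at 1.46 and 1.62 CPM in control KD and 3.96 and 5.43 CPM in GSTM1 KD (log2 fold change 1.60, SE 0.301, edgeR adjusted p = 0.0345). Gstm7 was at 1.89 and 3.05 CPM in control KD and 5.26 and 7.41 CPM in GSTM1 KD and did not pass (log2 fold change 1.37, SE 0.342, edgeR adjusted p = 0.061998). It passed in DESeq2 (DESeq2 adjusted p = 0.0094) and with scaling by library size alone (edgeR adjusted p = 0.0489). All GSTM1 KD values of Gstm2 and Gstm7 exceeded both control KD values. Gstm5 was at 35.9 and 37.6 CPM in control KD and 41.96 and 44.9 CPM in GSTM1 KD (log2 fold change 0.24, SE 0.112). Gstm4 and Gstm6 had log2 fold changes of 0.03 and 0.05, and Gstm3 had at most 1 count in a library, too few for any change to be seen at this depth. RSEM divides reads among similar transcripts, so the counts of mu-class paralogs are uncertain. Summed over the class, the level was 281 and 431 CPM in control KD and 89.0 and 96.6 CPM in GSTM1 KD. Of the 13 other genes tested within 200 kb of Gstm1, Gstm2 included, 3 passed, beside 10.2% of all genes. Besides Gstm2 they were Amigo1, an adhesion molecule gene (log2 fold change -1.15), and Cyb561d1, a cytochrome b561 family gene (log2 fold change 0.91), both named after their values were seen. Gstm5 overlaps another annotated gene, which makes its counts uncertain.

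**Figure D1:**
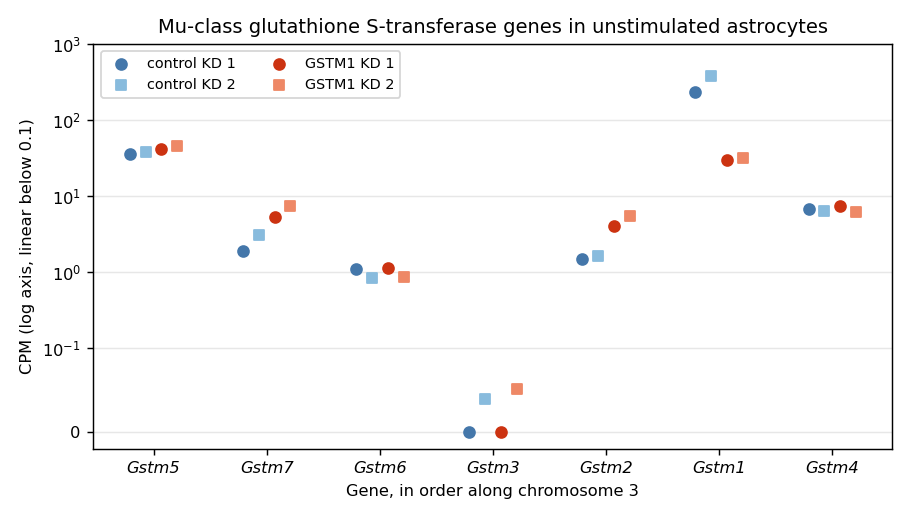
Level of the 7 mu-class genes in each of the 4 libraries (CPM, log axis that is linear below 0.1), in chromosome order. Gstm1 lies at 234 and 382 CPM in control KD and 29.4 and 31.8 CPM in GSTM1 KD, and Gstm2 and Gstm7 are higher in both GSTM1 KD libraries.

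Across all genes, 1524 of 14899 tested passed an adjusted p of 0.05 (10.2%), with 686 (4.6%) higher in the knockdown and 838 (5.62%) lower. The groups did not overlap for any of the 1524, but they also did not overlap for 63.4% of all genes tested. The median log2 fold change was 0.97 among the higher genes and -0.89 among the lower genes, and 325 higher and 333 lower genes changed by more than 2-fold. Over 4-fold, 93 genes were higher and 35 lower. Protein-coding genes made up 653 of the higher and 823 of the lower genes. Of lincRNAs, 12 of 322 tested were higher and 3 lower. Genes between 10 and 100 CPM passed most often, in 13.0% of 7532, and genes under 1 CPM in 3.58% of 1564.

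The number called rested on the GSTM1 KD pair. Without GSTM1 KD replicate 1 only 1 gene passed, and without GSTM1 KD replicate 2 only 3 did. These fits take the spread from the control KD pair alone, and edgeR's common coefficient of variation was then 19.96% and 19.94%, against 15.8% with all 4 libraries. Without control KD replicate 1, 902 genes were higher and 1283 lower, and without control KD replicate 2, 2647 and 2609, with a coefficient of variation of 10.74% and 10.76%. In none of these 4 fits did a called gene with a value change direction. Scaling by library size alone turned the split to 870 higher and 784 lower. Control KD replicate 1 was the farther of the control KD libraries from the GSTM1 KD mean for 491 of the 686 higher and 541 of the 838 lower genes, against 64.01% of all genes tested. DESeq2 called 1115 higher and 1377 lower genes. Every call below was lost without either GSTM1 KD library, except that of RP24-201C14.4.

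**Figure D2:**
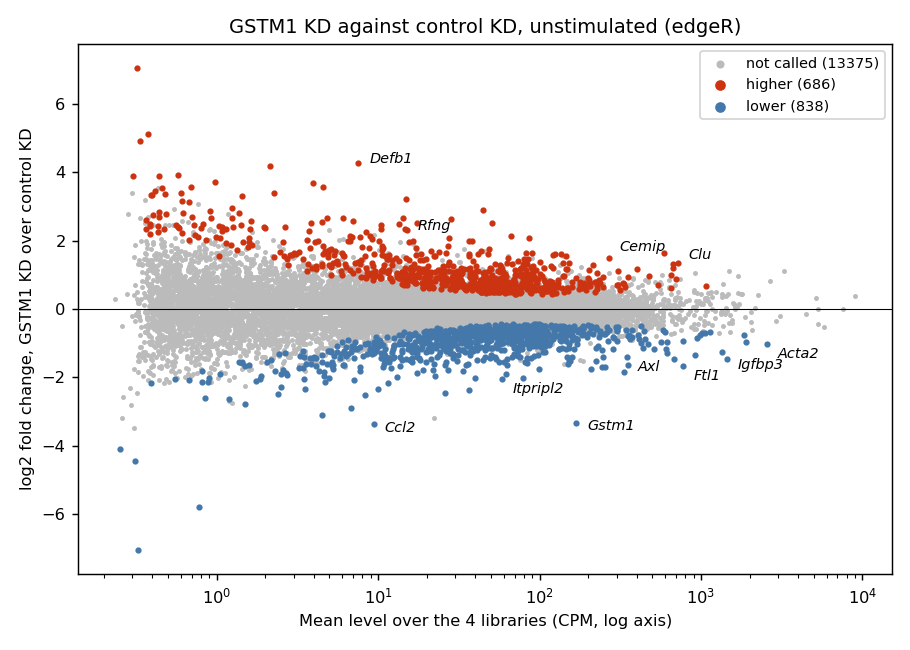
The log2 fold change of GSTM1 KD over control KD (vertical axis) against the mean CPM of the 4 libraries (horizontal log axis) for the 14899 genes tested, with called genes in colour. Gstm1 stands at -3.33, while Defb1 lies above 4.

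The higher genes with the smallest p-values were of mixed function. Rgs2, which shortens signalling by G proteins, was at 21.1 and 20.2 CPM in control KD and 62.6 and 62.7 CPM in GSTM1 KD (log2 fold change 1.60, SE 0.109, edgeR adjusted p = 0.0132). Mapkapk2, the kinase that acts downstream of p38, was at 45.8 and 44.5 CPM in control KD and 119.6 and 130.1 CPM in GSTM1 KD (log2 fold change 1.47). Rfng, a fringe glycosyltransferase that modifies Notch receptors, was at 4.88 and 5.35 CPM in control KD and 23.9 and 26.4 CPM in GSTM1 KD (log2 fold change 2.30, SE 0.165, edgeR adjusted p = 0.0132). Replicates of a group differed little for these genes, which a choice by smallest p-value favours. Ctnnd2 (δ-catenin, of the adherens junctions) and Cemip, which takes part in breaking down hyaluronan, had log2 fold changes of 1.61 and 1.48. Smarcd1, a subunit of the BAF chromatin remodelling complex, rose from 33.5 and 32.8 CPM in control KD to 82.4 and 80.4 CPM in GSTM1 KD (log2 fold change 1.296). The RNA-binding protein gene Habp4 and the zinc transporter gene Slc39a13 rose as well (log2 fold changes 1.297 and 1.20). RP24-201C14.4, an annotated gene that overlaps the histone genes Hist2h2aa1 and Hist2h3c1, was at 11.2 and 9.94 CPM in control KD and 66.3 and 90.7 CPM in GSTM1 KD (log2 fold change 2.89, SE 0.191, edgeR adjusted p = 0.0132). It was the one gene that also passed without GSTM1 KD replicate 1 (log2 fold change 3.10, edgeR adjusted p = 0.0499) and without GSTM1 KD replicate 2 (2.64, edgeR adjusted p = 0.0349). Mapkapk2, Ctnnd2, Smarcd1 and Slc39a13 overlap other annotated genes, which makes their counts uncertain.

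The lower genes with the smallest p-values were likewise varied. Itpripl2 (ENSMUSG00000095115.2, chromosome 7 from 118485111 to 118491975, minus strand) was at 96.3 and 92.2 CPM in control KD and 24.001 and 21.4 CPM in GSTM1 KD (log2 fold change -2.05, SE 0.114). Igfbp4, which binds insulin-like growth factors, was at 48.3 and 39.4 CPM in control KD and 8.09 and 7.87 CPM in GSTM1 KD (log2 fold change -2.46, SE 0.1604, edgeR adjusted p = 0.0132). Mapk7, which encodes the kinase ERK5, was at 55.6 and 53.6 CPM in control KD and 17.8 and 17.7 CPM in GSTM1 KD (log2 fold change -1.62). Each of these lay far below the control range in both GSTM1 KD libraries. Ube2v1, a partner of the ubiquitin enzyme that builds lysine-63-linked chains, was at 228 and 223 CPM in control KD and 77.6 and 71.3 CPM in GSTM1 KD (log2 fold change -1.60). Slc20a1, a sodium-dependent phosphate transporter, was at 337 and 329 CPM in control KD and 110.2 and 119 CPM in GSTM1 KD (log2 fold change -1.54). Hsd17b12, an enzyme of fatty acid elongation, was at 213 and 216 CPM in control KD and 82.8 and 78.7 CPM in GSTM1 KD (log2 fold change -1.41). Pnp, an enzyme of purine salvage whose annotation overlaps its paralog Pnp2, and Nxph3, a neurexophilin, fell by 1.40 and 1.80 on the log2 scale, and the small membrane protein gene Inafm2 fell by 1.45. Mapk7, Ube2v1 and Slc20a1 overlap other annotated genes, which makes their counts uncertain.

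**Figure D3:**
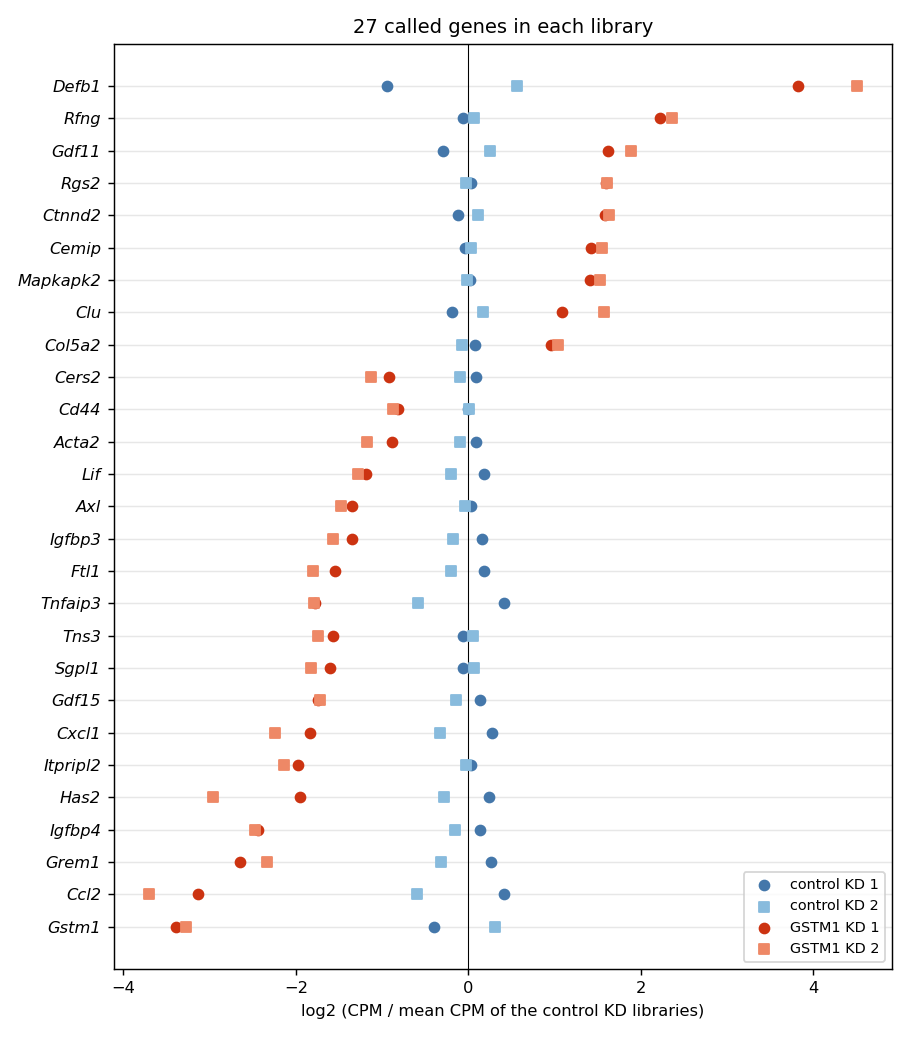
Level of 27 called genes in each library as the log2 ratio of its CPM to the mean CPM of the control KD libraries. The groups do not overlap for any of them, and the control KD replicates are farthest apart for Defb1, Ccl2 and Tnfaip3.

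Some of the largest changes were in genes of low level. Defb1, a β-defensin (an antimicrobial peptide), had 14 and 29 counts in the control KD libraries against 253 and 347 in those of GSTM1 KD (log2 fold change 4.26, edgeR adjusted p = 0.0183). Gsg1l, an auxiliary subunit of AMPA receptors, had 4 and 4 counts in the control KD libraries against 48 and 30 in those of GSTM1 KD (log2 fold change 3.71). In the other direction, Ccl2 and Ccl7 are described below with the chemokines. Serpinb2, a plasminogen activator inhibitor whose annotation overlaps Serpinb10, had 526 and 224 counts in the control KD libraries against 53 and 17 in those of GSTM1 KD (log2 fold change -2.90), and Esam, an adhesion molecule of endothelial junctions, had 99 and 61 counts in the control KD libraries against 8 and 8 in those of GSTM1 KD (log2 fold change -2.79). Gsg1l overlaps another annotated gene, which makes its counts uncertain.

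Of 34 glutathione synthesis and antioxidant genes tested, 0 passed edgeR's test (7 at an unadjusted p below 0.05), 1 passed in DESeq2, and the median log2 fold change was -0.08 against 0.00 over all genes. Of 25 NRF2 targets tested, 0 were higher and 2 lower (median -0.07), and 1 of 18 iron handling genes was lower, beside 10.2% called over all genes. Heme oxygenase 1 (Hmox1) was at 383 and 236 CPM in control KD and 152 and 128 CPM in GSTM1 KD (log2 fold change -1.14, SE 0.246, edgeR adjusted p = 0.0442). Ftl1, the ferritin light chain, was at 1326 and 1020.5 CPM in control KD and 401 and 337 CPM in GSTM1 KD (log2 fold change -1.67, SE 0.182, edgeR adjusted p = 0.0161). Control KD replicate 1 was the highest library for Hmox1 and Ftl1. Fth1, also on the iron handling list, was at 1526 and 1755 CPM in control KD and 1642 and 1769 CPM in GSTM1 KD. It did not pass (log2 fold change 0.06, edgeR adjusted p = 0.816). Outside the mu class, 1 of 13 GST genes tested passed, Ptges, a glutathione-dependent prostaglandin E synthase, with 255 and 212 counts in the control KD libraries against 60 and 45 in those of GSTM1 KD (log2 fold change -1.68). Its effective length, the length of its transcripts adjusted for fragment size and weighted by abundance, differed between the groups. With length offsets Ptges did not pass (edgeR adjusted p = 0.0712). Gsta4 was at 55.9 and 69.2 CPM in control KD and 91.7 and 89.98 CPM in GSTM1 KD and did not pass (edgeR adjusted p = 0.0589). It passed in DESeq2 (DESeq2 adjusted p = 0.0268) and with scaling by library size alone (edgeR adjusted p = 0.0405). In the glutathione list the calls were 0 higher and 2 lower when control KD replicate 1 was left out and 3 and 6 when replicate 2 was, in the NRF2 list 0 and 4, then 3 and 7, in the iron handling list 0 and 2, then 2 and 3, and in the non-mu GST list 1 and 3, then 2 and 3. Ftl1 and Ptges overlap other annotated genes, which makes their counts uncertain.

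Chemokine genes had a median log2 fold change of -1.34 over 12 tested of 26, with 5 above 0 and 7 below. Of the 12, 4 were called lower and 2 higher, beside 5.62% called lower and 4.6% called higher over all genes. With at least 10 counts required in every library the median was -0.57 over 10 genes, and on log2 TPM it was -0.82. Ccl2 and Ccl7, chemokines that attract monocytes, were neighbours on chromosome 11. Ccl2 was at 22.95 and 11.4 CPM in control KD and 1.96 and 1.32 CPM in GSTM1 KD (log2 fold change -3.38, SE 0.428, edgeR adjusted p = 0.0194), and Ccl7 at 11.02 and 5.19 CPM in control KD and 1.22 and 0.6601 CPM in GSTM1 KD (log2 fold change -3.09, SE 0.505, edgeR adjusted p = 0.02697). Cxcl1, which attracts neutrophils, was at 9.55 and 6.297 CPM in control KD and 2.22 and 1.68 CPM in GSTM1 KD (log2 fold change -2.02, SE 0.319, edgeR adjusted p = 0.0261). Its neighbour Cxcl2, named after its values were seen, was at 3.5 and 1.47 CPM in control KD and 0.391 and 0.6601 CPM in GSTM1 KD and did not pass (log2 fold change -2.26, SE 0.573, edgeR adjusted p = 0.0641). Control KD replicate 1 was above replicate 2 for all 4, and the median over the chemokines was -0.91 when control KD replicate 1 was left out and -1.63 when replicate 2 was. Cx3cl1 (fractalkine), the membrane-bound chemokine read by microglia, went the other way, at 141 and 149 CPM in control KD and 221 and 252 CPM in GSTM1 KD (log2 fold change 0.71). Of those named after their values were seen, Cxcl10, which attracts T cells, fell by 1.45 and Ccl27a rose by 0.98 on the log2 scale. Summed over the 26 genes, chemokine RNA stood at 323 and 280.2 CPM in control KD and 357 and 396 CPM in GSTM1 KD, Cx3cl1 included. Without either GSTM1 KD replicate 0 chemokine genes passed. The 7 microglial markers tested had a median of -0.86, with 0 called, and Itgam had 61 and 8 counts in the control KD libraries against 3 and 0 in those of GSTM1 KD, and their part in the chemokine values was not tested. In the chemokine list the calls were 3 higher and 4 lower when control KD replicate 1 was left out and 3 and 6 when replicate 2 was. Ccl2, Cxcl10 and Ccl27a overlap other annotated genes, which makes their counts uncertain.

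The sequences upstream of Cxcl1 and Cxcl2 show a shared element. Both are given as 300 bases of GRCm38.p6 from RefSeq, from 250 bases before to 50 after the annotated start, on the plus strand, with the match to the NF-κB consensus (on either strand, as a pair of overlapping matches) in capitals. Cxcl1 is read from chr5:90890995-90891294 and Cxcl2 from chr5:90903649-90903948.
Cxcl1: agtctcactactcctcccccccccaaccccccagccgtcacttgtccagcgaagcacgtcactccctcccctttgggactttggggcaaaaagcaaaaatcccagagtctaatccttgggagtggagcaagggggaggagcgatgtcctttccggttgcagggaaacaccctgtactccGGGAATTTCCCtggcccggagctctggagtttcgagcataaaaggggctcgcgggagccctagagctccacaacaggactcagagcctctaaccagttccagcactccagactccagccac
Cxcl2: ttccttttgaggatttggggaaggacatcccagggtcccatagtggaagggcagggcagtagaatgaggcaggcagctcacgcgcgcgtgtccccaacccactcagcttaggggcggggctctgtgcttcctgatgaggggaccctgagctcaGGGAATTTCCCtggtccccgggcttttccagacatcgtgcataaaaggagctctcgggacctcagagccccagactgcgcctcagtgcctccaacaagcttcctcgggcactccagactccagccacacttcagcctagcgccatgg
The match GGGAATTTCC starts 71 bases before the Cxcl1 start and 97 bases before the Cxcl2 start. Of 32851 promoters in the table, 4.5% hold a match, as do 6.49% of 10097 tested genes with a promoter, 7.32% of 642 lower genes and 5.5% of 473 higher genes. The match is a feature of the sequence and was not tested as a site.

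Cytokine genes showed 4 lower and 0 higher of 15 tested, beside 5.62% lower and 4.6% higher over all genes, with a median of -0.52 (range -0.72 to -0.29 with each library left out). Lif and Clcf1, cytokines that signal through gp130, fell together. Lif was at 117 and 90.02 CPM in control KD and 45.4 and 42.6 CPM in GSTM1 KD (log2 fold change -1.23, SE 0.152, edgeR adjusted p = 0.01901), and Clcf1 at 186 and 181 CPM in control KD and 83.7 and 78.8 CPM in GSTM1 KD (log2 fold change -1.18, SE 0.104, edgeR adjusted p = 0.0132). Kitl, the ligand of the receptor KIT, was at 62.5 and 88.99 CPM in control KD and 33.4 and 41.1 CPM in GSTM1 KD (log2 fold change -1.02), and Tnfsf15, a TNF superfamily ligand, had 87 and 53 counts in the control KD libraries against 19 and 12 in those of GSTM1 KD (log2 fold change -1.67). Neither Kitl nor Tnfsf15 passed with effective length offsets (edgeR adjusted p = 0.0683 and 0.0514), nor did Tnfsf15 without control KD replicate 1 (edgeR adjusted p = 0.0631). The promoter of Lif (chr11:4257318-4257617, GRCm38.p6, plus strand) holds the AP-1 letters TGANTCA, searched on both strands, 228 bases before the start, shown in capitals.
Lif: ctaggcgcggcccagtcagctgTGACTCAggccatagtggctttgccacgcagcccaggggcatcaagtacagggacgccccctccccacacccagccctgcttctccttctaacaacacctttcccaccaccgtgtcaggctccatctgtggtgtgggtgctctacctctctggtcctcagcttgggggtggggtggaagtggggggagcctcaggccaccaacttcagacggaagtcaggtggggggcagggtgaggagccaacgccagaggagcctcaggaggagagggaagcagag
These letters occur in 7.81% of all promoters, in 6.2% of the tested genes with a promoter, in 7.01% of the lower and 8.67% of the higher genes. In the cytokine list the calls were 0 higher and 4 lower when control KD replicate 1 was left out and 2 and 8 when replicate 2 was. Clcf1 overlaps another annotated gene, which makes its counts uncertain.

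Of 39 NF-κB pathway genes tested 13 were lower and 1 higher, against 5.62% lower and 4.6% higher of all genes. Their median of -0.36 ran from -0.38 to -0.28 with each library left out. With length offsets 9 were lower and 2 higher (median -0.31), and on log2 TPM 6 were lower and 1 higher (median -0.25). Counts without control KD replicates 1 and 2 were 12 and 17 lower and 1 and 5 higher. Tnfaip3 (A20) and Birc3, feedback genes of the pathway, and Rela, a subunit of NF-κB, were named after their values were seen. Tnfaip3 was at 55.7 and 27.96 CPM in control KD and 12.2 and 12.1 CPM in GSTM1 KD (log2 fold change -1.79, SE 0.331, edgeR adjusted p = 0.0336), Birc3 at 10.1 and 8.36 CPM in control KD and 3.17 and 2.74 CPM in GSTM1 KD (log2 fold change -1.64), and Rela at 100.1 and 92.8 CPM in control KD and 63.6 and 62.6 CPM in GSTM1 KD (log2 fold change -0.61). The control KD replicates of Tnfaip3 stood far apart, with replicate 1 the higher. Ripk1, a kinase of the TNF receptor complex, was at 57.3 and 59.8 CPM in control KD and 32.4 and 31.4 CPM in GSTM1 KD (log2 fold change -0.88, SE 0.106, edgeR adjusted p = 0.0183), and Tab3, an adaptor of the kinase TAK1, at 30.4 and 26.6 CPM in control KD and 12.9 and 12.2 CPM in GSTM1 KD (log2 fold change -1.19). Other lower genes of the list, beside Ube2v1 above, were named after their values were seen. They included Tab2 (-0.88) and Map3k7, the gene of TAK1 itself (-0.66). Rnf31, Sharpin and Otulin, which build or remove linear ubiquitin chains, were lower too (-0.63, -0.66 and -0.66, all log2 fold changes). Genes of ubiquitin signalling were not counted or tested as a separate group. Chosen in the same way, the kinase gene Chuk and the TNF receptor gene Tnfrsf1b fell too (log2 fold changes -0.63 and -1.255). Traf3, which restrains the alternative NF-κB pathway, rose to 122 and 133 CPM in GSTM1 KD from 46.99 and 61.2 CPM in control KD (log2 fold change 1.24, SE 0.154, edgeR adjusted p = 0.0192). The 7 microglial markers tested summed to 56.8 and 54.8 CPM in control KD and 56.8 and 52.1 CPM in GSTM1 KD, and their part in these results was not tested. Ripk1, Tab3, Map3k7, Rnf31, Otulin and Traf3 overlap other annotated genes, which makes their counts uncertain.

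Of 51 interferon response genes tested, 1 was higher and 2 lower, beside 10.2% called over all genes, with a median of -0.08. Ifi27 was at 73.96 and 92.9 CPM in control KD and 132 and 141 CPM in GSTM1 KD (log2 fold change 0.71, edgeR adjusted p = 0.0377) and Ifit1 at 34.7 and 37.1 CPM in control KD and 22.3 and 16.5 CPM in GSTM1 KD (log2 fold change -0.89, edgeR adjusted p = 0.0385). Oasl1 had 59 and 42 counts in the control KD libraries against 13 and 6 in those of GSTM1 KD (log2 fold change -1.92) and lost its call with length offsets. Of 22 genes of MHC class I and antigen processing, 1 passed, the peptidase gene Erap1, at 28.6 and 44.001 CPM in control KD and 71.7 and 82.3 CPM in GSTM1 KD (log2 fold change 1.09). Of 19 complement genes tested 2 rose and 0 fell. C3, the central complement component, was at 63.7 and 52.6 CPM in control KD and 96.1 and 99.8 CPM in GSTM1 KD (log2 fold change 0.75, SE 0.126, edgeR adjusted p = 0.0282). Clusterin (Clu), an extracellular chaperone and complement inhibitor, was at 357 and 456 CPM in control KD and 861 and 1207 CPM in GSTM1 KD (log2 fold change 1.35, SE 0.216, edgeR adjusted p = 0.0263). In the interferon list the calls were 1 higher and 5 lower when control KD replicate 1 was left out and 8 and 3 when replicate 2 was, in the MHC class I list 1 and 2, then 3 and 3, and in the complement list 3 and 1, then 5 and 4. Oasl1, Erap1 and C3 overlap other annotated genes, which makes their counts uncertain.

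Reactive astrocyte genes were lower in 10 and higher in 0 of 35 tested, against 5.62% lower and 4.6% higher of all genes, with a median of -0.46 (range -0.56 to -0.41 with each library left out), whereas Gfap did not pass. Cd44, the hyaluronan receptor, was at 1206 and 1215 CPM in control KD and 687 and 659.5 CPM in GSTM1 KD (log2 fold change -0.85, SE 0.11996, edgeR adjusted p = 0.0227). Timp1, an inhibitor of matrix metalloproteases, was at 151 and 93.2 CPM in control KD and 46.5 and 35.95 CPM in GSTM1 KD (log2 fold change -1.57, SE 0.258, edgeR adjusted p = 0.0277), and the small heat shock protein gene Hspb1 at 81.8 and 172 CPM in control KD and 27.2 and 34.7 CPM in GSTM1 KD (log2 fold change -2.03, SE 0.361, edgeR adjusted p = 0.0307). Ptgs2, the inducible cyclooxygenase, and the protease inhibitor Serpina3n, named after their values were seen, fell by 1.07 and 0.78 on the log2 scale. Fkbp5, a glucocorticoid-responsive chaperone, was at 27.7 and 26.5 CPM in control KD and 15.3 and 15.2 CPM in GSTM1 KD (log2 fold change -0.83). Without control KD replicate 1, 16 of the list were lower and 0 higher, and without control KD replicate 2, 15 were lower and 6 higher. Of the 28 astrocyte identity genes tested, 1 was higher and 2 lower (10.7%, near the 10.2% called over all genes), with a median of 0.32 which stood at -0.04 when control KD replicate 1 was left out and 0.78 when replicate 2 was. S100b, a calcium-binding protein, was at 7.49 and 9.39 CPM in control KD and 3.0001 and 3.199 CPM in GSTM1 KD (log2 fold change -1.44), and the transcription factor Nfib at 509 and 451 CPM in control KD and 280.4 and 256 CPM in GSTM1 KD (log2 fold change -0.84). In the astrocyte identity list the calls were 2 higher and 8 lower when control KD replicate 1 was left out and 20 and 2 when replicate 2 was. Cd44, Timp1, Fkbp5, S100b and Nfib overlap other annotated genes, which makes their counts uncertain.

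Among markers of other cells, Olig2, a factor of the oligodendrocyte lineage also present in some astrocytes, was at 124 and 152 CPM in control KD and 76.9 and 76.7 CPM in GSTM1 KD (log2 fold change -0.85, SE 0.131, edgeR adjusted p = 0.0251), and 1 of 9 oligodendrocyte markers tested was higher and 1 lower, beside 10.2% called over all genes. Elavl3, an RNA-binding protein of neurons, was at 9.24 and 11.2 CPM in control KD and 25.001 and 30.5 CPM in GSTM1 KD (log2 fold change 1.44). Of 9 neuron markers tested, 1 was higher and 1 lower (Nefm, log2 fold change -1.64), with 5 above 0 and a median of 0.098. Of 13 markers of mural cells and fibroblasts tested, 3 were lower and 0 higher, and the summed level of the 18 genes of the list was 6808 and 6128 CPM in control KD and 3621 and 3084 CPM in GSTM1 KD, made up mostly of Acta2 and Tagln. Over the 13 tested, 5 were above 0, and the median of -0.43 became 0.18 when control KD replicate 2 was left out. Acta2, smooth muscle actin, was at 3639 and 3206 CPM in control KD and 1854 and 1517 CPM in GSTM1 KD (log2 fold change -1.02, SE 0.167, edgeR adjusted p = 0.02697), Tagln (transgelin) at 2751 and 2282 CPM in control KD and 1436 and 1118 CPM in GSTM1 KD (log2 fold change -0.98), and Col1a2, a type I collagen chain, at 124 and 157 CPM in control KD and 52.4 and 76.2 CPM in GSTM1 KD (log2 fold change -1.13). Of 5 endothelial markers tested, 1 was lower in edgeR (Esam, above) and 3 in DESeq2, with a median of -0.91, and the 12 genes of that list summed to 23.3 and 21.6 CPM in control KD and 10.8 and 14.2 CPM in GSTM1 KD. Besides Esam, DESeq2 called Flt1 and Cdh5, which did not pass in edgeR (log2 fold changes -0.91 and -1.65, edgeR adjusted p = 0.0872 and 0.0954). Cultured astrocytes can also express actin and transgelin genes, and the part of other cells in these values was not tested. In the oligodendrocyte list the calls were 0 higher and 2 lower when control KD replicate 1 was left out and 3 and 3 when replicate 2 was, in the mural and fibroblast list 0 and 5, then 2 and 5, and in the endothelial list 0 and 1, then 1 and 3. Elavl3, Tagln, Col1a2 and Cdh5 overlap other annotated genes, which makes their counts uncertain.

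Genes of the actin cytoskeleton and of the YAP coactivator were lower in 12 and higher in 1 of 40 tested, against 5.62% lower and 4.6% higher of all genes, with a median of -0.53 (range -0.57 to -0.46 with each library left out), and without control KD replicates 1 and 2 the lower counts were 20 and 24. Axl, a receptor tyrosine kinase, was at 518 and 494 CPM in control KD and 199 and 182 CPM in GSTM1 KD (log2 fold change -1.41, SE 0.118, edgeR adjusted p = 0.0132). Tns3, which links integrins to actin, was at 514 and 558 CPM in control KD and 181 and 159.9 CPM in GSTM1 KD (log2 fold change -1.65, SE 0.129, edgeR adjusted p = 0.0132). Tead1, the DNA-binding partner of YAP, was at 503 and 572 CPM in control KD and 295 and 292 CPM in GSTM1 KD (log2 fold change -0.87), and the matricellular protein gene Wisp1 at 45.7 and 37.1 CPM in control KD and 16.6 and 16.4 CPM in GSTM1 KD (log2 fold change -1.33). Among others named after their values were seen, Cyr61, a secreted YAP target, and Zyx, a focal adhesion protein, fell by 0.76 and 0.93 on the log2 scale. The 18 mural cell and fibroblast markers summed to 6808 and 6128 CPM in control KD and 3621 and 3084 CPM in GSTM1 KD. Acta2 and Tagln made up most of that sum. Of the 13 markers tested, 5 lay above 0, and their part in the values of the YAP list was not tested. Tead1 and Zyx overlap other annotated genes, which makes their counts uncertain.

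Called genes of the extracellular matrix and its proteases lay on both sides of 0. Of 37 proteases and their inhibitors tested, 10 were lower and 1 higher, beside 5.62% and 4.6% of all genes (median -0.16, against -0.26 without control KD replicate 1, -0.26 without replicate 2 and -0.46 with length offsets). F3, tissue factor, the starter of coagulation and counted in that list, was at 627 and 624 CPM in control KD and 329.5 and 287 CPM in GSTM1 KD (log2 fold change -1.02, SE 0.126, edgeR adjusted p = 0.0192). Adam19 and Timp4 fell by 1.14 and 1.20 on the log2 scale. Plau, the urokinase gene, named after its values were seen, fell by 1.03 on the log2 scale. Mmp12, a macrophage elastase gene named after its values were seen, had 85 and 16 counts in the control KD libraries against 0 and 1 in those of GSTM1 KD (edgeR adjusted p = 0.0434). Most of its counts were in control KD replicate 1, as with Itgam. Has2, which makes hyaluronan, was at 72.3 and 50.3 CPM in control KD and 15.8 and 7.87 CPM in GSTM1 KD (log2 fold change -2.36, SE 0.356, edgeR adjusted p = 0.0242), the opposite direction to Cemip. Fbln2 (fibulin) and Lama4 (a laminin chain) fell by 1.35 and 1.27 on the log2 scale, while Col5a2 rose, at 459 and 414 CPM in control KD and 851 and 898 CPM in GSTM1 KD (log2 fold change 1.00, SE 0.126, edgeR adjusted p = 0.0192). Of 32 collagen genes tested 1 was higher and 1 lower (6.25%, below the 10.2% called over all genes). Among integrins, 3 were lower and 1 higher of 22 (18.2%). Itga5, the fibronectin receptor chain, was at 359 and 418 CPM in control KD and 97.2 and 142 CPM in GSTM1 KD (log2 fold change -1.70, SE 0.208, edgeR adjusted p = 0.01901), and Itgb3 and Itga3 fell by 1.84 and 0.54 on the log2 scale. In the protease list the calls were 1 higher and 10 lower when control KD replicate 1 was left out and 4 and 14 when replicate 2 was, in the collagen list 3 and 5, then 10 and 2, and in the integrin list 1 and 4, then 5 and 6. Adam19, Timp4, Mmp12, Has2, Col5a2 and Itga5 overlap other annotated genes, which makes their counts uncertain.

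Secreted growth factors gave 6 lower and 2 higher of 32 tested, beside 10.2% called over all genes (median -0.26). Gdf15, a stress-induced cytokine of the TGF-β family, was at 20.4 and 16.8 CPM in control KD and 5.52 and 5.64 CPM in GSTM1 KD (log2 fold change -1.73, SE 0.186, edgeR adjusted p = 0.01605). Gdnf, a neurotrophic factor for dopaminergic neurons, had 322 and 140 counts in the control KD libraries against 51 and 31 in those of GSTM1 KD (log2 fold change -1.96), and Angptl4, an inhibitor of lipoprotein lipase, had 122 and 112 counts in the control KD libraries against 22 and 23 in those of GSTM1 KD (log2 fold change -1.90). Ereg, an EGF receptor ligand named after its values were seen, fell by 1.69 on the log2 scale. Gdf11 went up, at 18.1 and 26.4 CPM in control KD and 68.4 and 82.1 CPM in GSTM1 KD (log2 fold change 1.76, SE 0.209, edgeR adjusted p = 0.0178). Of 18 genes of the IGF system 3 were lower and 0 higher: Igfbp4, above, Igfbp3, at 2375 and 1867 CPM in control KD and 830.0 and 717 CPM in GSTM1 KD (log2 fold change -1.46, SE 0.176, edgeR adjusted p = 0.0183), and the protease gene Pappa, which cuts IGF-binding proteins (log2 fold change -0.78, not called by voom or with length offsets). TGF-β, activin and BMP genes were split, 4 higher and 3 lower of 40. Inhba, the activin A subunit, was at 112 and 100.2 CPM in control KD and 33.2 and 49.3 CPM in GSTM1 KD (log2 fold change -1.37), the BMP antagonist Grem1 had 171 and 83 counts in the control KD libraries against 15 and 16 in those of GSTM1 KD (log2 fold change -2.49), and Tgfb3 was at 59.2 and 87.7 CPM in control KD and 175 and 164 CPM in GSTM1 KD (log2 fold change 1.21). Tgfb2, named after its values were seen, rose by 0.94 on the log2 scale. In the growth factor list the calls were 4 higher and 9 lower when control KD replicate 1 was left out and 7 and 12 when replicate 2 was, in the IGF list 0 and 3, then 1 and 4, and in the TGF-β list 4 and 7, then 9 and 7. Ereg, Inhba, Tgfb3 and Tgfb2 overlap other annotated genes, which makes their counts uncertain.

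Wnt and Notch genes were also mixed, with 5 higher and 3 lower of 40 Wnt genes and 1 higher and 3 lower of 21 Notch genes tested, beside 4.6% higher and 5.62% lower over all genes. Fzd1, a Wnt receptor, was at 63.9 and 68.8 CPM in control KD and 134 and 135 CPM in GSTM1 KD (log2 fold change 1.02, SE 0.102, edgeR adjusted p = 0.01605). The ligand Wnt9a and the secreted modulator Dkk3 fell by 1.05 and 1.60 on the log2 scale. In the Notch pathway Rfng rose, while its nuclear effector Rbpj and target Hes1 fell by 0.55 and 0.76 on the log2 scale, and Hes1 lost its call with length offsets (edgeR adjusted p = 0.05099). Of 91 kinases, phosphatases and adaptors of the MAP kinase pathways, 6 were higher and 12 lower (median -0.03). Dusp8, a phosphatase of JNK and p38, was at 7.23 and 8.32 CPM in control KD and 27.3 and 25.9 CPM in GSTM1 KD (log2 fold change 1.78, SE 0.158, edgeR adjusted p = 0.0132), and Gab2, a docking protein of growth factor receptors, at 73.6 and 53.7 CPM in control KD and 15.8 and 15.2 CPM in GSTM1 KD (log2 fold change -2.04, SE 0.182, edgeR adjusted p = 0.0132). Named after their values were seen, the GTPase gene Nras fell by 1.17 on the log2 scale, while the stress kinase genes Map2k4 and Map3k5 rose by 0.86 and 1.12. Among AP-1 and immediate early genes 2 were higher and 6 lower of 32, with Klf4 at 48.3 and 30.5 CPM in control KD and 11.04 and 14.5 CPM in GSTM1 KD (log2 fold change -1.63) and Ier5 at 153 and 154 CPM in control KD and 77.1 and 79.7 CPM in GSTM1 KD (log2 fold change -0.97). Junb and Zfp36, the latter a factor that destabilises cytokine mRNAs, fell by 0.74 and 0.80 on the log2 scale. In the Wnt list the calls were 7 higher and 4 lower when control KD replicate 1 was left out and 14 and 6 when replicate 2 was, in the Notch list 1 and 5, then 5 and 5, in the MAP kinase list 9 and 14, then 14 and 22, and in the AP-1 list 1 and 8, then 7 and 11. Rbpj, Dusp8, Map2k4, Junb and Zfp36 overlap other annotated genes, which makes their counts uncertain.

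**Figure D4:**
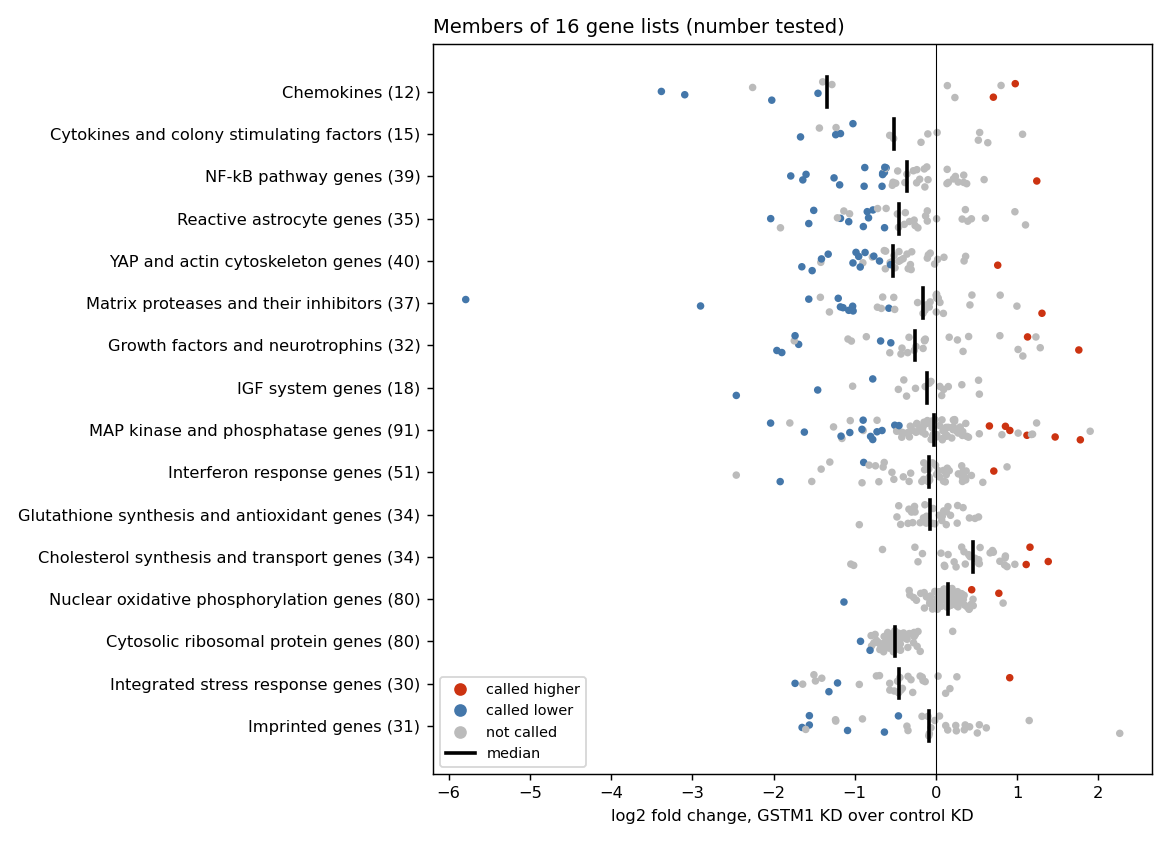
The log2 fold change of each tested member of 16 gene lists (number tested in parentheses), with called members in colour and the list median as a bar. Lower calls lead in the chemokine, NF-κB, reactive astrocyte and YAP lists, and cholesterol genes lie mostly above 0.

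Genes of cholesterol synthesis and transport lay above 0 in 28 of 34 tested, with a median of 0.45, but only 3 (8.82%, beside 10.2% of all genes) passed edgeR's test, against 12 higher and 1 lower in DESeq2. With control KD replicate 1 left out the median was 0.24 with 5 called higher and 2 lower, and with replicate 2 left out it was 0.64 with 24 higher and 1 lower. Dhcr7, an enzyme of a late reduction in cholesterol synthesis, was at 26.2 and 35.1 CPM in control KD and 56.9 and 75.6 CPM in GSTM1 KD (log2 fold change 1.11, SE 0.203, edgeR adjusted p = 0.0325). Idi1, an isomerase earlier in the pathway, was at 71.1 and 112 CPM in control KD and 181 and 228 CPM in GSTM1 KD (log2 fold change 1.16). In both, control KD replicate 1 was the lowest library. Acss2, which makes acetyl-CoA from acetate, was at 19.05 and 28.7 CPM in control KD and 61.9 and 83.2 CPM in GSTM1 KD (log2 fold change 1.61, SE 0.242, edgeR adjusted p = 0.0242), and Fasn, fatty acid synthase, at 219 and 263 CPM in control KD and 389.7 and 535 CPM in GSTM1 KD (log2 fold change 0.94). Together with Hsd17b12 these made 2 higher and 1 lower of 24 fatty acid synthesis genes (12.5%, near the share over all genes). In the fatty acid synthesis list the calls were 2 higher and 3 lower when control KD replicate 1 was left out and 12 and 2 when replicate 2 was. Idi1 and Acss2 overlap other annotated genes, which makes their counts uncertain.

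In the sphingolipid list 6 of 27 genes tested were higher and 4 lower, beside 4.6% and 5.62% of all genes. Sgpl1, the lyase that breaks down sphingosine-1-phosphate, was at 356 and 389 CPM in control KD and 122 and 105 CPM in GSTM1 KD (log2 fold change -1.71, SE 0.132, edgeR adjusted p = 0.0132). Cers2, a ceramide synthase, was at 245 and 214 CPM in control KD and 122 and 105 CPM in GSTM1 KD (log2 fold change -1.02, SE 0.133, edgeR adjusted p = 0.0195). Sphk2, a sphingosine kinase, and S1pr2, a receptor for sphingosine-1-phosphate, fell by 1.20 and 1.00 on the log2 scale. Among the higher genes, named after their values were seen, were the sphingomyelinase Smpd1 and the ceramide kinase Cerk (log2 fold changes 0.78 and 1.07). Of 24 glycolysis genes 3 were higher and 0 lower (12.5%, near the 10.2% called over all genes). Ldhb, a lactate dehydrogenase subunit, was at 314 and 500.4 CPM in control KD and 814 and 1058 CPM in GSTM1 KD (log2 fold change 1.20, SE 0.259, edgeR adjusted p = 0.0444), and Slc16a1, a lactate transporter, at 185 and 309 CPM in control KD and 581 and 526 CPM in GSTM1 KD (log2 fold change 1.17, SE 0.2505, edgeR adjusted p = 0.0441). Of 42 fatty acid oxidation and activation genes tested, 2 were higher and 1 lower (7.14%, below the 10.2% called over all genes). Ppargc1a and Cpt1c were the higher genes of fatty acid oxidation (log2 fold changes 0.75 and 0.69). Pdk1 of the glycolysis list (log2 fold change 0.54) and Acsl5 of the fatty acid oxidation list (log2 fold change -0.54) passed. Neither passed with length offsets (edgeR adjusted p = 0.225 and 0.0853). In the sphingolipid list the calls were 6 higher and 6 lower when control KD replicate 1 was left out and 8 and 5 when replicate 2 was, in the glycolysis list 3 and 2, then 8 and 2, and in the fatty acid oxidation list 3 and 3, then 17 and 2. Sgpl1, Cers2, Sphk2, Cerk, Slc16a1, Ppargc1a, Cpt1c and Acsl5 overlap other annotated genes, which makes their counts uncertain.

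Of 80 nuclear oxidative phosphorylation genes tested 64 were above 0, with a median of 0.15 (0.24 on log2 TPM), but only 2 were called higher and 1 lower (3.75%, beside 10.2% of all genes). Uqcr10 was at 43.6 and 40.9 CPM in control KD and 74.8 and 69.8 CPM in GSTM1 KD (log2 fold change 0.77, SE 0.105, edgeR adjusted p = 0.0212), and Cyc1, cytochrome c1 of the same complex, at 194 and 182 CPM in control KD and 92.5 and 79.1 CPM in GSTM1 KD (log2 fold change -1.13, SE 0.124, edgeR adjusted p = 0.0161). The 13 genes of the mitochondrial genome had a median of 0.32, with mt-Nd1 at 808 and 852 CPM in control KD and 1339 and 1299 CPM in GSTM1 KD (log2 fold change 0.67, edgeR adjusted p = 0.0329) as the 1 call. Mitochondrial genes took 1.33% and 1.51% of counts in the control KD libraries and 1.87% and 1.88% in those of GSTM1 KD. In the nuclear gene list the calls were 3 higher and 1 lower when control KD replicate 1 was left out and 10 and 2 when replicate 2 was, and in the mitochondrial genome list 1 and 1, then 5 and 0. mt-Nd1 overlaps another annotated gene, which makes its counts uncertain.

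Ribosomal protein genes lay below 0 in 79 of 80 tested, with a median of -0.51 and 2 called lower by edgeR (2.5%, beside 5.62% of all genes) against 46 by DESeq2. Rpsa was at 1125 and 902 CPM in control KD and 588 and 477 CPM in GSTM1 KD (log2 fold change -0.93, SE 0.176, edgeR adjusted p = 0.03499). Their share of counts was 3.42% and 2.51% in the control KD libraries and 2.26% and 1.94% in those of GSTM1 KD, so the control KD replicates differed from each other by more than control KD replicate 2 differed from GSTM1 KD replicate 1. Without control KD replicate 1 the median was -0.31 with 4 called, and without control KD replicate 2 it was -0.70 with 78 called. Reads of ribosomal protein genes can be shared with their processed pseudogenes, so single values are uncertain. Of 37 proteasome subunit genes 1 was called, Psmb6 (log2 fold change -0.69). In the proteasome list the calls were 0 higher and 1 lower when control KD replicate 1 was left out and 0 and 9 when replicate 2 was. Rpsa overlaps another annotated gene, which makes its counts uncertain.

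Of 30 genes of the integrated stress response 1 was higher and 3 lower, beside 10.2% called over all genes (median -0.45, -0.18 without control KD replicate 1 and -0.68 without replicate 2). Atf3 rose, at 10.1 and 10.02 CPM in control KD and 17.7 and 20.1 CPM in GSTM1 KD (log2 fold change 0.91, SE 0.159, edgeR adjusted p = 0.0299), while Cebpg and Aldh1l2 fell by 1.21 and 1.32 on the log2 scale and lost their calls with length offsets (edgeR adjusted p = 0.0587 and 0.0635). Among 33 genes of ER chaperones and the unfolded protein response 0 passed in edgeR, with 5 at an unadjusted p below 0.05, and 1 in DESeq2. Of 21 heat shock genes 4 were lower and 1 higher. Hsf1, the master factor of the heat shock response, was at 37.95 and 34.7 CPM in control KD and 20.6 and 19.2 CPM in GSTM1 KD (log2 fold change -0.87, SE 0.128, edgeR adjusted p = 0.0234), and Cryab, a small heat shock protein gene, at 690.2 and 519 CPM in control KD and 285 and 262 CPM in GSTM1 KD (log2 fold change -1.15, SE 0.1699, edgeR adjusted p = 0.0236). Hspd1, the mitochondrial chaperonin, fell by 0.77 on the log2 scale. Tfeb, which drives lysosomal genes, and the autophagy kinase gene Ulk1 were 2 of the 3 higher genes of 40 lysosome and autophagy genes (log2 fold changes 1.13 and 0.63). In the integrated stress list the calls were 1 higher and 6 lower when control KD replicate 1 was left out and 1 and 21 when replicate 2 was, in the ER list 0 and 2, then 4 and 3, in the heat shock list 1 and 4, then 2 and 6, and in the lysosome list 3 and 1, then 13 and 7. Atf3, Cebpg, Aldh1l2, Cryab and Hspd1 overlap other annotated genes, which makes their counts uncertain.

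Of 39 cell cycle genes tested 1 was lower and 0 higher (2.56%, below the 10.2% called over all genes). The lower gene was Ccne1 (cyclin E1) at 22.5 and 19.01 CPM in control KD and 8.61 and 4.37 CPM in GSTM1 KD (log2 fold change -1.67, SE 0.328, edgeR adjusted p = 0.0377). Among 32 p53 targets and apoptosis genes 2 were higher and 2 lower (12.5%, near that share). Bak1, a pore-forming apoptosis protein, and Sesn1, a sestrin, had log2 fold changes of 0.90 and 0.88, and the death receptor gene Fas was at 122 and 173 CPM in control KD and 65.9 and 71.4 CPM in GSTM1 KD (log2 fold change -1.10). In the cell cycle list the calls were 1 higher and 2 lower when control KD replicate 1 was left out and 2 and 4 when replicate 2 was, and in the p53 list 4 and 3, then 8 and 12. Bak1, Sesn1 and Fas overlap other annotated genes, which makes their counts uncertain.

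Of 31 imprinted genes tested 6 were lower and 0 higher, against 5.62% and 4.6% of all genes. Leaving out control KD replicate 1 gave 8 lower and 1 higher, leaving out control KD replicate 2 gave 8 and 6, and testing with no filter on low counts gave 9 and 5. Meg3 and Rian, maternally expressed non-coding RNAs of one imprinted cluster on chromosome 12, both fell. Meg3 was at 32.7 and 26.3 CPM in control KD and 8.39 and 11.7 CPM in GSTM1 KD (log2 fold change -1.56, SE 0.218, edgeR adjusted p = 0.0222) and Rian at 87.3 and 91.6 CPM in control KD and 31.3 and 29.3 CPM in GSTM1 KD (log2 fold change -1.56, SE 0.105, edgeR adjusted p = 0.0132). Both transcripts host microRNAs or small nucleolar RNAs in their spans, so their counts are uncertain. Grb10, an adaptor that inhibits insulin and IGF receptors, and the zinc finger gene Plagl1 fell by 1.65 and 1.09 on the log2 scale. In the small RNA pathway Ago2, the slicing Argonaute, was at 182 and 199.8 CPM in control KD and 109.6 and 115 CPM in GSTM1 KD (log2 fold change -0.77, SE 0.10996, edgeR adjusted p = 0.0228), and Tnrc6c, its silencing partner, at 42.6 and 46.1 CPM in control KD and 73.9 and 82.01 CPM in GSTM1 KD (log2 fold change 0.81, SE 0.111, edgeR adjusted p = 0.0212). Dicer1 (log2 fold change 0.66) did not pass with length offsets (edgeR adjusted p = 0.114). Plagl1 and Ago2 overlap other annotated genes, which makes their counts uncertain.

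The deposited TPM values gave the same sign for 1523 of the 1524 called genes, and limma on log2(TPM + 1) called 920 of them in the same direction. In all, 1228 of the 1524 calls were kept with length offsets.

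**Figure D5:**
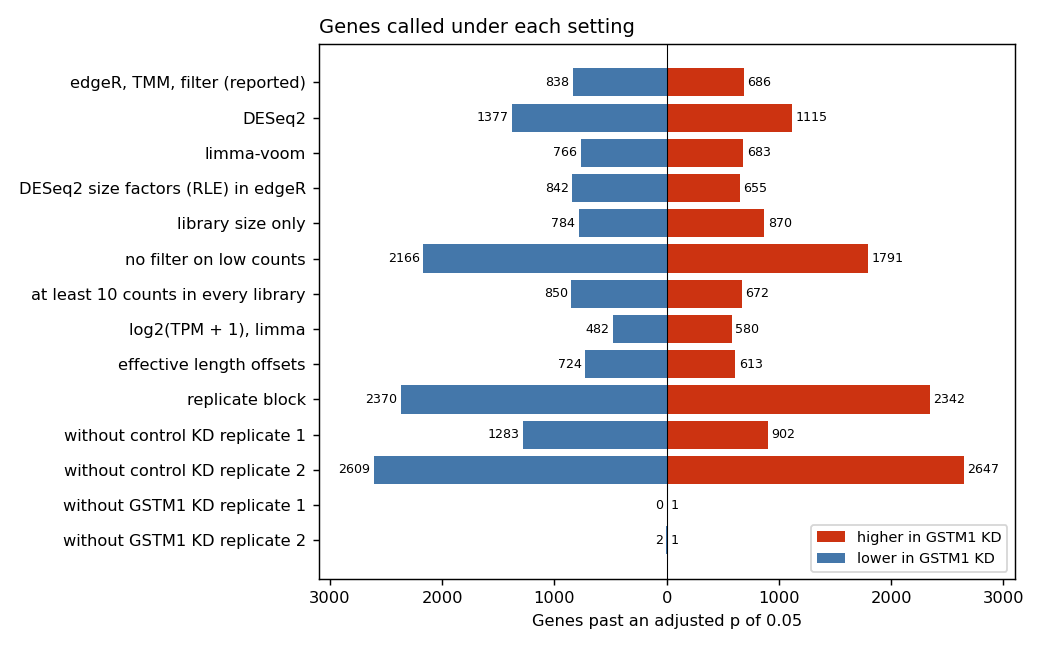
Number of genes past an adjusted p of 0.05, higher to the right and lower to the left, for the reported analysis and 13 alternatives. Leaving out either GSTM1 KD library leaves 1 or 3 genes, and leaving out control KD replicate 2 gives 2647 and 2609.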

How the data were processed

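RNA was measured by paired-end sequencing (reads of 100 bases, directional NEB library kit) of 4 unstimulated cultures, and the 4 TNF-α libraries were not used. Per the labels and the study's methods, the authors mapped reads to GRCm38 (mm10) with STAR 2.5.4b and made the deposited expected counts per gene with RSEM 1.3.0, which divides reads shared between transcripts. The authors' RSEM run also gave the deposited TPM values, scaled for transcript length, and effective lengths. The annotation release and whether counting used strand are not given in the sources used here. Coordinates and biotypes came from the GENCODE M21 annotation, which matched 54079 of 54146 gene identifiers.

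Expected counts were rounded and tested with edgeR 4.0.16 (R 4.3.3): TMM factors, filterByExpr, quasi-likelihood fit and Benjamini-Hochberg adjustment over 14899 genes at 0.05. With 2 libraries a group, an exact permutation test of a single gene cannot reach 0.05. Totals were 19772259 to 34434615 counts, and the floor of 3 counts covers counting error only. The replicates of each group differed by more than counting noise. Alternatives were DESeq2 1.42.0, limma 3.58.1 (voom, and log2(TPM + 1)), other scalings and filters, length offsets, a replicate block and each library left out. The code was tested on simulated data. The methods of the study state its count test for stimulated against unstimulated cells, and the present contrast was fitted on the 4 libraries alone.

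Genes named were the mu-class genes, the 10 higher and 10 lower called genes with the smallest p and groups that do not overlap, the 5 largest changes in each direction with at least 20 counts in both libraries of the higher group, and up to 4 such called members of each gene list, or, in a list with fewer than 2, also the 2 with the highest level. Some were left out for space or are not reported here, and others are said to be named after their values were seen. The comparison and gene lists were chosen with earlier results of these data known.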

Additional observations from a re-analysis of the deposited data

How the results depend on the processing

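No called gene named in the text changed direction under the 13 alternatives where it had a value, which 6 lacked with at least 10 counts required in every library. DESeq2 called 2492 genes (1115 higher, 1377 lower), testing without a filter on low counts 3957 (1791 higher, 2166 lower), and limma on log2(TPM + 1) 580 higher and 482 lower genes, the reverse of the reported split of 686 and 838. With each library left out in turn the count ran from 1 to 5256, with 1 to 2647 higher and 0 to 2609 lower, and Gstm1 from -3.65 without control KD replicate 1 to -2.94 without control KD replicate 2. Over the same fits Gstm4 ran from -0.10 to 0.14 and Gstm6 from -0.16 to 0.26, so neither has a settled direction. Of the 176 called genes named, 175 did not pass without GSTM1 KD replicate 1 and 175 without replicate 2, and 5 did not pass without control KD replicate 1 (Cldn11, Egr3, Oasl1, Sharpin and Tnfsf15). Length offsets ended 23 of these calls, limma on TPM 49, voom 8, library size alone 5, DESeq2 size factors in edgeR 3 and DESeq2 1, besides 2 that DESeq2 gave no adjusted p.

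Replicates share only a number across groups, and the sources do not say what it marks. Deviations of libraries with the same number correlated at 0.376 (2 pairs), and with the replicate block 4712 genes were called (2342 higher, 2370 lower), including all 1524. At these depths genes under about 1 CPM rest on few counts.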

Other observations

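Called genes of the lists that the text above counts but does not name lay on both sides, and except for those the naming rule picks they are given here after their values were seen. Among Wnt genes Sfrp4, a secreted antagonist, was at 2.41 and 3.41 CPM in control KD and 8.22 and 9.95 CPM in GSTM1 KD (log2 fold change 1.65), and the ligand Wnt5b and receptor Fzd6 were higher (0.59 and 0.55) while the transcription factor Tcf7 was lower (-0.71). The activin receptor gene Acvr2a and the latent TGF-β binding protein gene Ltbp1 were higher (0.57 and 0.59), and Ltbp2 was lower (-0.58). Egr3, an immediate early transcription factor, was higher (1.53), the opposite direction to Klf4 and Junb, and Maml2, a Notch coactivator, was lower (-0.48). Fzd6, Acvr2a, Ltbp1, Ltbp2 and Egr3 did not pass with length offsets. Wisp2 was the one higher gene of the YAP list (0.76), whereas Wisp1 fell. The proteoglycan gene Vcan was lower (-0.70), and Mmp15, a membrane-bound metalloprotease, and Itgbl1 were higher (1.31 and 1.33).

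In the remaining lists the growth factor gene Pdgfd was at a log2 fold change of 1.13, the co-chaperone gene Dnajb2 at 0.66, the autophagy gene Atg16l1 at 0.57 and Cox7a2l, which takes part in joining respiratory complexes, at 0.44, the last not called with length offsets. Zmat3, a p53 target, and Rps13 were lower (-0.58 and -0.81), and Rps13 was not called by voom or with scaling by library size alone. The further called markers of other cells named here were few in counts. Cldn11, a claudin of oligodendrocytes, had 2 and 2 counts in the control KD libraries against 11 and 19 in those of GSTM1 KD (edgeR adjusted p = 0.0382), the control KD counts being under the floor of 3. Folr1, a folate receptor of the choroid plexus, had 17 and 4 counts in the control KD libraries against 36 and 55 in those of GSTM1 KD (log2 fold change 2.67). It was the 1 call among 10 ependymal and choroid plexus markers tested, beside 10.2% called over all genes. Their median was 0.43, with 8 above 0, and 0.087 without control KD replicate 1. Foxj1 of that list was at 107 and 163 CPM in control KD and 129 and 142 CPM in GSTM1 KD. Neither Foxj1 nor Rsph1 passed (log2 fold changes 0.0067 and 0.57). Nefm, a neurofilament of neurons, had 85 and 60 counts in the control KD libraries against 19 and 14 in those of GSTM1 KD (log2 fold change -1.64), the opposite direction to Elavl3. Wnt5b, Fzd6, Tcf7, Acvr2a, Ltbp1, Ltbp2, Maml2, Vcan, Itgbl1, Pdgfd, Atg16l1, Rps13, Folr1, Rsph1 and Nefm overlap other annotated genes, which makes their counts uncertain.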
